A study of Rattus norvegicus with 12 samples.

Results

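The genes of the vascular endothelial growth factor (VEGF) and platelet-derived growth factor (PDGF) ligands, Vegfa, Vegfb, Vegfc, Pdgfa, Pdgfb, Pdgfc and Pdgfd, were followed in cultured skin-derived precursors (SKPs). The members were chosen by name: a row of the deposited array values belonged to the set when its single gene symbol was a member. Each of the 7 symbols had 1 such row, out of 18166 genes with a row. SKPs are dermal precursor cells that grow as floating spheres, and these came from newborn Sprague-Dawley rat pups. Cells of dissociated secondary spheres received, for 24 h, vehicle, 100 nM alprostadil (prostaglandin E1), 100 nM trimebutine maleate (a gut motility drug), or both trimebutine maleate and trametinib (the combination, 100 nM of each). Trametinib is an inhibitor of the kinase MEK, which activates the growth kinase ERK. Each of the 4 groups had 3 arrays, numbered 1 to 3, and the design names 3 independent isolates. All groups shared the growth medium, which held the supplement B27 at 2%, and 40 ng/ml FGF2 and 20 ng/ml EGF, growth factors that themselves signal through ERK. No group received trametinib without trimebutine, so an effect of trametinib alone and an effect of the pair cannot be told apart.

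VEGF and PDGF proteins are secreted dimers of one structural family, held together by a knot of cysteine bridges. VEGF-A, the product of Vegfa, drives the growth and leakiness of blood vessels through the receptors FLT1 and KDR, VEGF-B binds FLT1, and VEGF-C drives the growth of lymphatic vessels through FLT4. PDGF-A, PDGF-B and PDGF-C signal through the receptor PDGFRA, which marks dermal fibroblasts and their precursors, while PDGF-B and PDGF-D signal through PDGFRB, the receptor of pericytes and smooth muscle. PDGF-C and PDGF-D are made with an extra domain that proteases cut away before the ligand can bind.

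The start regions of the 3 members that changed most are shown because they carry the changes in opposite directions. They run from 250 bases before to 50 bases after the annotated start, 5′ to 3′, and come from RefSeq on the GRCr8 build. All 7 members had an entry, 8 in all, since Vegfa had 2 annotated starts. Capitals mark the GC box, searched as GGGCGG on both strands (read as CCGCCC on the other), the letters bound by SP1-type factors. The first start of Vegfa lies at chr9:22452604-22452903 (+ strand), Pdgfc at chr2:168614918-168615217 (+ strand) and Pdgfd at chr8:11773258-11773557 (+ strand).
Vegfa: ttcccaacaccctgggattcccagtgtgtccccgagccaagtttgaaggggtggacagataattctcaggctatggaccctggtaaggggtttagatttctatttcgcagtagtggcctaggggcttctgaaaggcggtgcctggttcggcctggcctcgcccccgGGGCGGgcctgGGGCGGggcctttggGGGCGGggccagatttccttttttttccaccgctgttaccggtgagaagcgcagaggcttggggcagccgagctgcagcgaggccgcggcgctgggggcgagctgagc
Pdgfc: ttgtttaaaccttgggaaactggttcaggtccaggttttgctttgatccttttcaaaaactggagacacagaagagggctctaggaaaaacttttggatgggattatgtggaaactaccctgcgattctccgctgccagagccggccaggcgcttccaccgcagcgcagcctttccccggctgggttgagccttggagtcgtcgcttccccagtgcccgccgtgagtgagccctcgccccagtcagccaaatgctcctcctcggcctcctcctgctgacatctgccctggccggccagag
Pdgfd: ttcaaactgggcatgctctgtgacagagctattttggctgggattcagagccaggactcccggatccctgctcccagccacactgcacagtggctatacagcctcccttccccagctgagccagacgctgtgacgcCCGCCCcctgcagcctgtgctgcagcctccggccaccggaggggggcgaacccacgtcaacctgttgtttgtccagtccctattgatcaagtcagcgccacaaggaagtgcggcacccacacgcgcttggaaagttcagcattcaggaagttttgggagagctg
Vegfa held 3 GC boxes, first bases at −84, −73 and −58 from the start. Pdgfd held 1, at −114, and Pdgfc held none. Of the members not shown, Vegfb held 4, Vegfc 2, and Pdgfa and Pdgfb 1 each. The second start of Vegfa held none, so the count did not follow the direction of change. Of 33469 start regions of the same length, 33.1% held at least 1 GC box. The core of the cyclic AMP response element, TGACG on either strand, occurred in 21.2% of all start regions and, among the members, in Pdgfd alone, where it was read at −120 and −60. The second of these overlapped a hypoxia response element core (ACGTG or GCGTG, on either strand) at −62. That core occurred in 41.6% of all start regions and, among the members, in Vegfb, Pdgfb and Pdgfd. Neither start region of Vegfa held it, and bases further upstream were not searched. The ETS core, GGAAG on either strand, occurred in 70.1% of all start regions. Among the members it was read in Pdgfa, Pdgfc, Pdgfd and the second start of Vegfa. No member held the AP-1 site TGACTCA, which 4.63% of all start regions held. These matches describe letters in the windows and do not mark bound sites.

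Values are deposited log2 expression values per array feature. They compare groups within a gene, not genes with each other. Differences are between group means, with the standard error (SE) and 95% interval of one limma fit to all 12 arrays. A gene was said to have risen or fallen when its adjusted p (Benjamini-Hochberg over the 13636 genes tested) was under 0.05. Each of the 7 members lay above the low-signal limit, a mean log2 value of 5.83, and was tested. Median values per array ran from 6.409 to 6.505, and the correlation of arrays within a group from 0.985 to 0.991. The labelled cell type was checked with dermal precursor markers. Of 14 fixed markers 13 had a row and all 13 lay above the limit on average. Across the 12 arrays Vim ran from 13.40 to 13.65, Col1a1 from 12.72 to 13.47 and Pdgfra from 11.59 to 12.69. The neural crest marker Sox2 ranged from 5.75 to 8.11 and Twist1 from 5.82 to 6.41, so both had arrays under the limit. As checks of the drugs, the cyclic AMP response genes Nr4a1 (2.46), Pde4b (1.24) and Crem (0.49) rose with alprostadil. Nr4a1 also rose when trametinib was added, by 1.76 (limma adjusted p = 4.5e-05). So did Crem, from a mean of 7.89 with trimebutine to 8.42 with the combination. Dusp6, the gene of a phosphatase that ERK switches on, fell by 3.23 in that comparison. Of the 13 precursor markers 5 rose and 3 fell with trametinib added, or 61.5% called, against 33.4% of all genes. The mean of their log2 values stayed between 10.4 and 10.6 in all arrays.

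**Figure D1:**
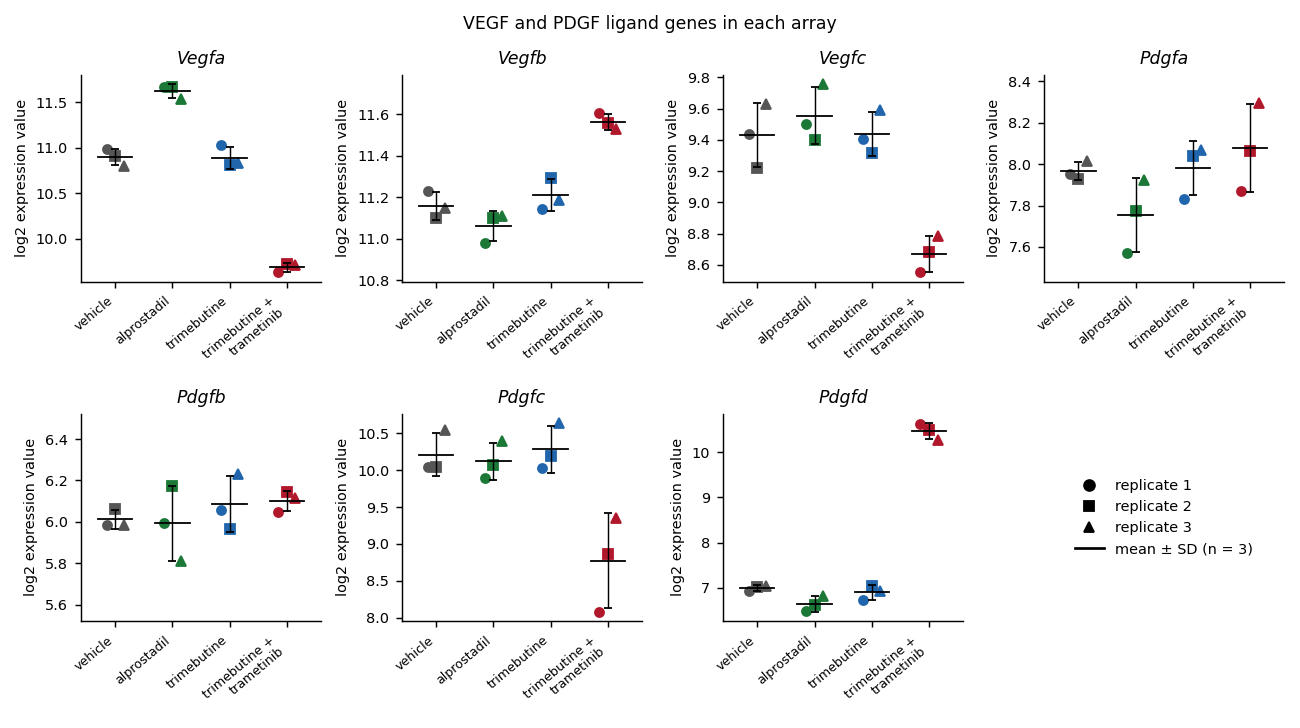
Log2 expression values of the 7 ligand genes (vertical axes, each with its own scale of at least 1 unit) in the 4 groups. Points are single arrays with the symbol giving the replicate number, and bars are the mean and SD of 3 arrays. Vegfa is highest with alprostadil and lowest with the combination, and Pdgfd stands between 10.28 and 10.62 in the combination against at most 7.04 elsewhere.

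With alprostadil 1 of the 7 ligand genes rose, Vegfa, and no ligand gene fell. With trimebutine alone none changed. When trametinib was added to trimebutine, 5 of 7 changed: Vegfa, Vegfc and Pdgfc fell, and Vegfb and Pdgfd rose. Pdgfa and Pdgfb did not pass in these 3 comparisons. Across all genes tested, 0.389% were called for alprostadil against vehicle (0.323% higher and 0.0660% lower), 0% for trimebutine against vehicle, and 33.4% for the combination against trimebutine (16.8% higher and 16.6% lower), so that a member called in the last comparison stood before a high background. When the fit took the replicate number as a block, the same members were called, and the background was 1.88%, 0% and 42.0% in these 3 comparisons. RNA came from whole cultures, so fewer cells that make a transcript and less transcript per cell cannot be told apart.

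Vegfa (array feature 17857560) had log2 values of 10.99, 10.91 and 10.80 in vehicle replicates 1, 2 and 3, and 11.67, 11.67 and 11.54 with alprostadil. All 3 alprostadil arrays lay above all 3 vehicle arrays. The rise was 0.73 (SE 0.08, 95% interval 0.56 to 0.89, limma adjusted p = 0.00226), or 1.66-fold, and it ranked 5 of 13636 genes by p. Within each replicate number it was 0.69, 0.76 and 0.74, so the 3 numbers gave like values.
With trimebutine the values were 11.03, 10.81 and 10.84, inside or close to the vehicle range. The difference from vehicle was −0.01, with a 95% interval from −0.17 to 0.16. With the combination they dropped to 9.63, 9.72 and 9.71, below every other array of the study. Against trimebutine Vegfa fell by 1.21 (SE 0.08, adjusted p = 4.52e-07), which is 2.31-fold lower. Against alprostadil, the group with the highest level, it fell by 1.94 (adjusted p = 1.83e-08), or 3.84-fold. The order of the 4 levels was combination, trimebutine, vehicle and alprostadil. Trimebutine and vehicle were the one neighbouring pair in that order that did not differ beyond the spread.

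Vegfc (feature 17711595), the lymphatic ligand, had values of 9.44, 9.22 and 9.63 in vehicle and 9.50, 9.40 and 9.76 with alprostadil. These ranges overlapped, and the difference was 0.12 (95% interval −0.14 to 0.39, limma adjusted p = 0.903). Within the replicate numbers it was 0.06, 0.18 and 0.13. With the replicate block the interval was −0.03 to 0.28, and the difference still did not pass (limma adjusted p = 0.479). Values with trimebutine were 9.41, 9.31 and 9.59, and those with the combination 8.55, 8.68 and 8.78. Every combination array lay below every other array. The fall against trimebutine was −0.77 (SE 0.12, 95% interval −1.03 to −0.50, adjusted p = 0.000521), 1.70-fold lower, and within the replicate numbers it was −0.85, −0.63 and −0.81. The combination was lowest, and the other groups, in the order vehicle, trimebutine and alprostadil, did not differ beyond their spread.

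Vegfb (feature 17640049), whose product binds FLT1 and not KDR, moved the other way from Vegfa and Vegfc. In vehicle its values were 11.23, 11.10 and 11.15, with alprostadil 10.98, 11.10 and 11.11, and with trimebutine 11.14, 11.29 and 11.19. The combination gave 11.61, 11.56 and 11.53, above all other arrays. The rise against trimebutine was 0.36 (SE 0.06, limma adjusted p = 0.00116), a 1.28-fold change, the smallest in size of the 5 that passed. With alprostadil the difference was −0.10 (95% interval −0.24 to 0.04), and replicate 1 gave −0.25 where replicates 2 and 3 gave 0.00015 and −0.041. The order of the levels was alprostadil, vehicle, trimebutine and combination, and only the step to the combination passed.

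Pdgfd (feature 17841831), a PDGFRB ligand, showed the largest change of the set. Its values were 6.92, 7.02 and 7.04 in vehicle, 6.48, 6.63 and 6.81 with alprostadil, and 6.72, 7.04 and 6.94 with trimebutine. In the combination they were 10.62, 10.50 and 10.28, far above the rest. The rise against trimebutine was 3.57 (SE 0.11, 95% interval 3.32 to 3.81, limma adjusted p = 5.47e-09), or 11.9-fold, and ranked 3 of 13636 genes by p. Replicate 1 gave 3.90, replicate 2 gave 3.46 and replicate 3 gave 3.34.
All 3 alprostadil arrays of Pdgfd lay below the vehicle arrays, with a difference of −0.35 (95% interval −0.60 to −0.11). That difference did not pass over all genes (adjusted p = 0.405, and 0.165 with the replicate block). The order of the levels was alprostadil, trimebutine, vehicle and combination, and only the step to the combination passed. Pdgfa also had groups that did not overlap in this comparison, so that 3 of 7 members did, counting Vegfa, against 11.6% of all genes. In the comparison of the combination with trimebutine 5 of 7 did so, against 45.8%.

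Pdgfc (feature 17739291), a PDGFRA ligand with the same domain plan as Pdgfd, went in the opposite direction. Its values were 10.04, 10.04 and 10.55 in vehicle, 9.90, 10.06 and 10.39 with alprostadil, and 10.02, 10.19 and 10.64 with trimebutine. Replicate 3 was the highest in each group. The order of the group means was combination, alprostadil, vehicle and trimebutine, and the last 3 did not differ beyond their spread. The combination gave 8.08, 8.87 and 9.36, all below the other arrays, and the widest spread of any member and group (SD 0.64, n = 3). The fall against trimebutine was −1.51 (SE 0.28, 95% interval −2.13 to −0.89, limma adjusted p = 0.00155), 2.85-fold lower. Within the replicate numbers it was −1.94, −1.32 and −1.28, so replicate 1 had the largest fall, and with any single array left out the fall lay between −1.81 and −1.17. With alprostadil the difference was −0.09, and its 95% interval, −0.71 to 0.53, was the widest of the 7 members. With the replicate block that interval narrowed to −0.40 to 0.21.

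Pdgfa (feature 17672282), a ligand of PDGFRA, ranged from 7.57 to 8.30 over the 12 arrays. Its group means were 7.97 ± 0.04 with vehicle, 7.75 ± 0.18 with alprostadil, 7.98 ± 0.13 with trimebutine and 8.08 ± 0.21 with the combination (SD, n = 3 each). The order of the levels was alprostadil, vehicle, trimebutine and combination, and no step between neighbours passed. Vehicle and alprostadil arrays did not overlap. The difference was −0.21 (95% interval −0.46 to 0.04, or −0.37 to −0.06 with the replicate block), below 0 in all 3 replicate numbers, and did not pass over all genes (limma adjusted p = 0.787, and 0.206 with the block). Adding trametinib gave 0.10 (95% interval −0.16 to 0.35, adjusted p = 0.572).
The combination stood above alprostadil by 0.32 (adjusted p = 0.0457). That call sat near the threshold and was lost without alprostadil replicate 1 (adjusted p = 0.164), alprostadil replicate 2 (0.0877), combination replicate 2 (0.0937) or combination replicate 3 (0.163). With the block its adjusted p was 0.0035, and within the replicate numbers the difference was 0.30, 0.29 and 0.37.

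Pdgfb (feature 17839248), the ligand that binds both PDGF receptors, stayed close to the low-signal limit, from 5.81 to 6.23 over the 12 arrays. One alprostadil array, replicate 3, lay under the limit. Its group means were 6.01 with vehicle, 5.99 with alprostadil, 6.09 with trimebutine and 6.10 with the combination. No difference in any of the 6 pairs of groups passed, and the largest was 0.11, for the combination against alprostadil (95% interval −0.09 to 0.31, limma adjusted p = 0.383).

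**Figure D2:**
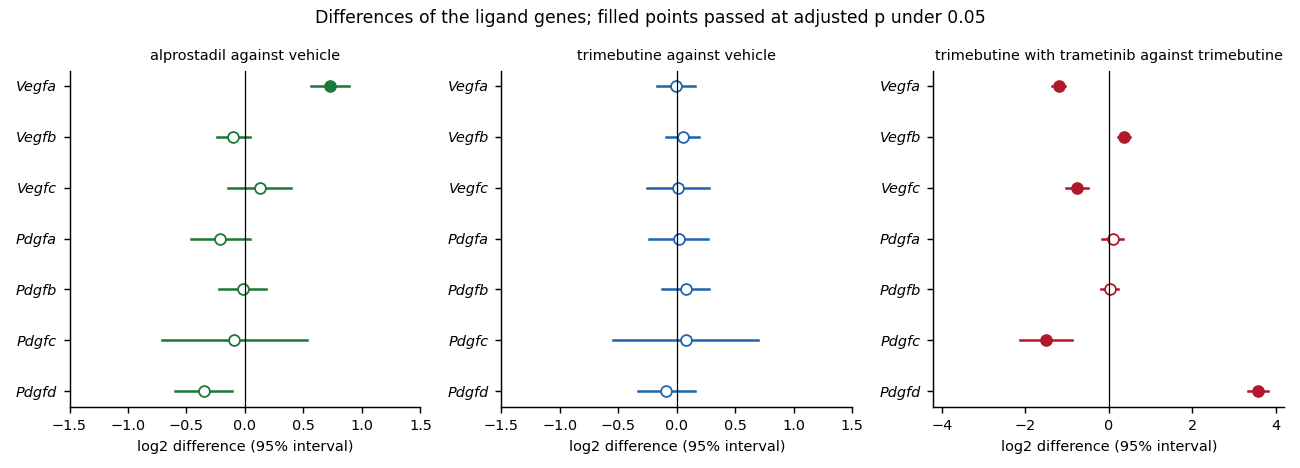
Log2 differences (horizontal axes) of the ligand genes in 3 comparisons with 95% intervals from limma. Filled points passed at an adjusted p under 0.05. The right panel has a wider axis. Pdgfd lies at 3.57 there, and all 7 intervals for trimebutine against vehicle include 0.

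For trimebutine against vehicle all 7 members lay between −0.09 and 0.07, with each 95% interval spanning 0. The intervals still allow differences: up to 0.19 in size for Vegfb and up to 0.69 for Pdgfc, the least precisely measured member (0.38 with the replicate block). By limma 0 of 13636 genes passed, and 143 had an unadjusted p under 0.05 (252 with the replicate block), none of them a member. No member's groups were free of overlap, against 4.23% of all genes. Alprostadil and trimebutine were given at the same dose and time. Set against each other directly, 1 of 7 members passed, against 0.381% of all genes (0.330% higher with alprostadil and 0.0513% lower; 2.51% with the block). Vegfa was higher with alprostadil by 0.73 (SE 0.08, limma adjusted p = 0.00146). The other 6 did not pass, with differences from −0.26 for Pdgfd (95% interval −0.51 to −0.02) to 0.12 for Vegfc. Groups did not overlap for 2 of 7 members, against 12.6% of all genes.

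The combination was also set against vehicle, which shares its samples with other comparisons. There 5 of 7 members passed, against 35.0% of all genes (17.5% in each direction, and 43.2% in all with the block), with differences of −1.21 for Vegfa, 0.41 for Vegfb, −0.76 for Vegfc, −1.44 for Pdgfc and 3.48 for Pdgfd. Against alprostadil 6 of 7 passed, with 37.9% of all genes called (19.6% higher and 18.2% lower, and 46.4% with the block). These were Vegfa (−1.94), Vegfb (0.50), Vegfc (−0.88), Pdgfa (0.32), Pdgfc (−1.35) and Pdgfd (3.83). Groups did not overlap for 5 of 7 members against vehicle and 5 of 7 against alprostadil, beside 47.3% and 48.9% of all genes. The members split in every comparison with the combination: their median difference was 0.02 against trimebutine, beside 0.03 over all genes, while single members ran from −1.51 to 3.57.

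**Figure D3:**
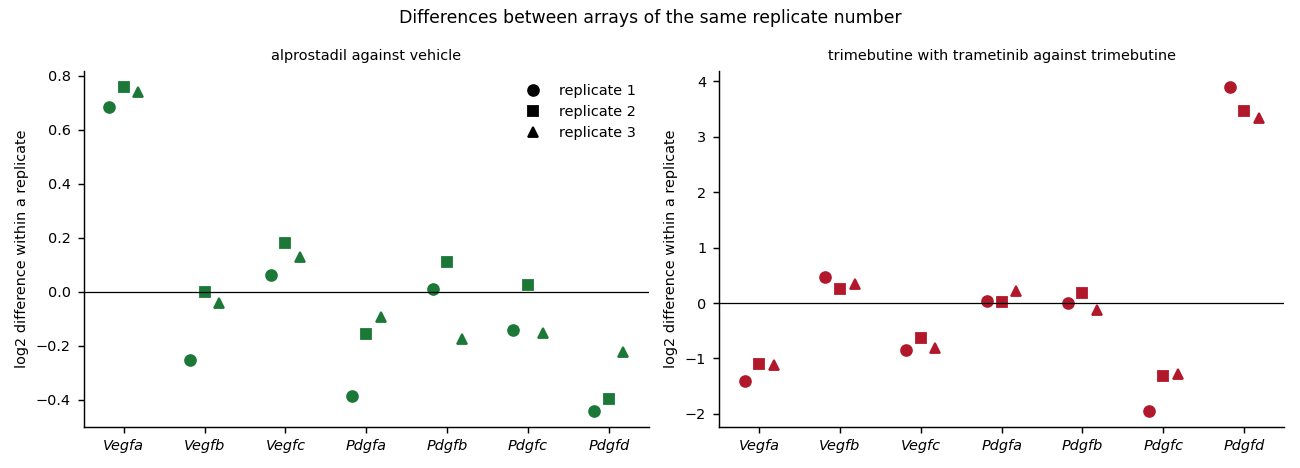
Log2 differences within a replicate number (vertical axes, with different ranges) for alprostadil against vehicle and for the combination against trimebutine. Each point is 1 of 3 replicate numbers. Vegfa lies between 0.69 and 0.76 on the left, and Pdgfd between 3.34 and 3.90 on the right.

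The remaining ligands of the VEGF family were Vegfd, a lymphatic ligand like Vegfc, and Pgf, a ligand of FLT1. Vegfd had a mean of 8.13 ± 0.12 (SD, n = 3) in vehicle and values of 7.72, 8.22 and 8.07 with trimebutine and 9.67, 9.88 and 9.22 with the combination. It rose by 1.58 (SE 0.18, limma adjusted p = 4.21e-05) when trametinib was added, while Vegfc fell. Its difference with alprostadil was −0.31 (95% interval −0.70 to 0.09) and did not pass. Pgf lay close to the low-signal limit, with 5.95 for trimebutine and 6.05 for the combination on average, and did not pass.

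Of 8 receptor and co-receptor genes 7 had a row and were tested, and Kdr was not analysed here. With trametinib added 3 rose, 1 fell and 3 did not pass, a called share of 57.1% against 33.4% of all genes. The co-receptor genes Nrp1 and Nrp2, whose products bind VEGF ligands and semaphorins, rose by 1.26 (SE 0.11, limma adjusted p = 7.87e-06) and 0.77 (SE 0.16, adjusted p = 0.00338). Flt1 rose by 0.55 (adjusted p = 0.000379), from 7.30, 7.39 and 7.48 with trimebutine to 7.79, 8.11 and 7.91. Pdgfra fell by 0.79 (SE 0.07, adjusted p = 6.61e-06), or 1.73-fold, from 12.52, 12.50 and 12.53 to 11.87, 11.59 and 11.72. The other PDGF receptor gene, Pdgfrb, had a difference of 0.13 (95% interval −0.06 to 0.31) and did not pass. Flt4 (0.03) and Pdgfrl (0.27, adjusted p = 0.0678) did not pass either. Pdgfrl, a gene related in sequence to the PDGF receptors, passed with the replicate block (adjusted p = 0.0296), with the arrays centred on their medians (0.0266) and with only the 6 arrays compared (0.0351). None of the 7 passed for alprostadil against vehicle, where they lay between −0.16 and 0.13.

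**Figure D4:**
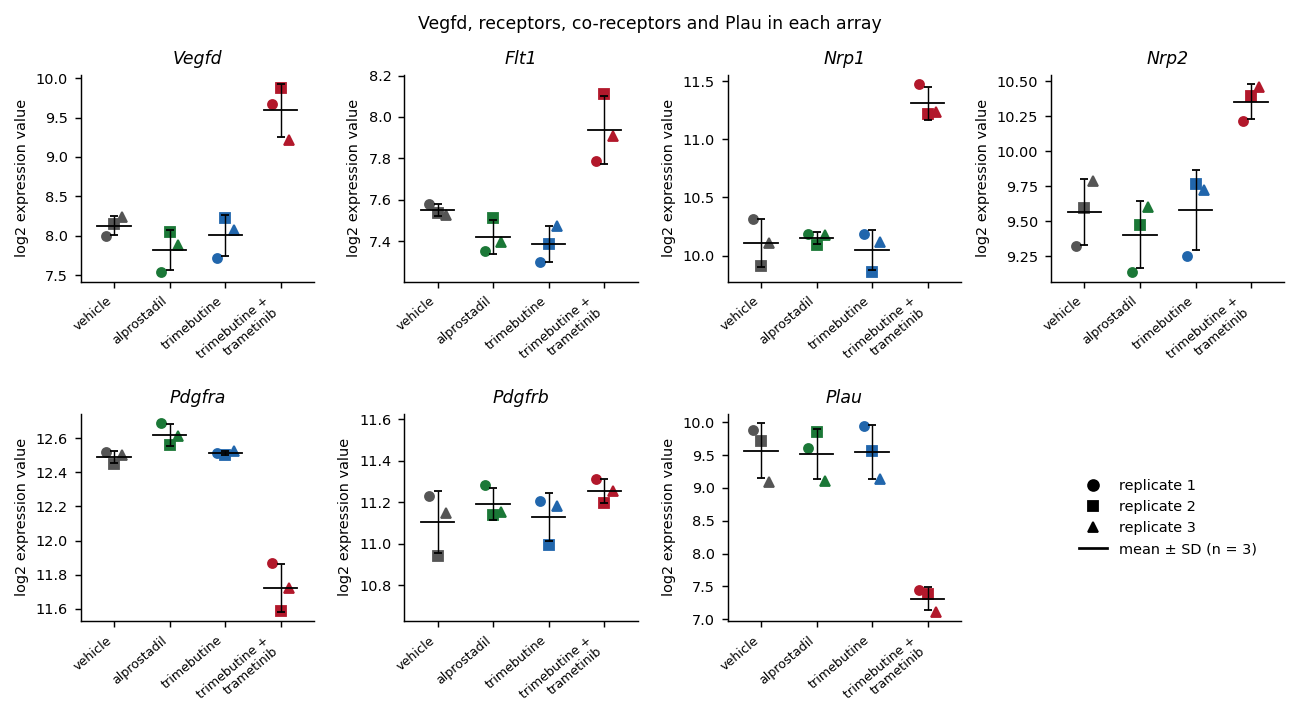
Log2 expression values (vertical axes, each with its own scale) of Vegfd, 5 receptor or co-receptor genes and the protease gene Plau in the 4 groups. Points are arrays with the symbol giving the replicate number, and bars are the mean and SD of 3 arrays. Pdgfra and Plau lie lowest with the combination, and Vegfd, Nrp1 and Nrp2 lie highest there.

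Proteases release or trim several of these ligands. Of 9 fixed genes 8 were tested, and with trametinib added 3 rose, 1 fell and 4 did not pass. The called share was 50%, against 33.4% of all genes. Plau, the urokinase gene, whose product can cut PDGF-D, fell by 2.24 (SE 0.25, limma adjusted p = 3.79e-05), or 4.71-fold, from 9.95, 9.56 and 9.13 to 7.44, 7.38 and 7.11. Plat, the tissue plasminogen activator gene, whose product can cut PDGF-C, rose by 0.47 (SE 0.09, adjusted p = 0.00216). In this comparison Pdgfd rose where Plau fell, and Pdgfc fell where Plat rose. The proprotein convertase genes Pcsk6 (0.69) and Pcsk7 (0.28) rose, and Furin (0.01) and St14 (0.05) did not pass. With the replicate block 4 of the 8 rose and 2 fell, where 42.0% of all genes were called. With alprostadil none of the 8 passed. Plat had a difference of 0.45 (adjusted p = 0.0867), which passed with the replicate block (adjusted p = 0.00397).

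Among 6 genes for extracellular proteins that bind these ligands or their receptors, 5 were tested. With trametinib added 3 rose, 1 fell and 1 did not pass, a called share of 80% against 33.4% of all genes. Ccn2 (1.49), which encodes a matrix protein that binds VEGF-A, Timp3 (0.97), whose product blocks KDR, and Sparc (0.31), whose product binds PDGF and VEGF, rose. A2m, which encodes a broad protease inhibitor that carries growth factors, fell by 1.29 (limma adjusted p = 1.86e-06). With alprostadil none passed, and Ccn2 had a difference of −0.74 (adjusted p = 0.176), which passed with the replicate block (adjusted p = 0.000999).

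Hypoxia-inducible factor (HIF) is the classical inducer of Vegfa, and 17 genes of oxygen sensing and HIF targets were tested. With alprostadil, where Vegfa rose, none of the 17 passed, against 0.389% of all genes. Their median difference was 0.07, beside −0.01 over all genes, and single values lay between −0.23 and 0.28. Hif1a itself had the highest, 0.28 (limma adjusted p = 0.171), and passed with the block (adjusted p = 0.0226). When trametinib was added, where Vegfa fell, 2 rose, 3 fell and 12 did not pass. Adm (0.93), which encodes the vessel-relaxing peptide adrenomedullin, and Epas1 (0.86), which encodes HIF-2 alpha, rose, and the glycolytic gene Pgk1 (−0.41) and the glucose transporter gene Slc2a1 (−0.41) fell. The called share of 29.4% was near the background of 33.4%, and the list's median of 0.05 was near that of all genes, 0.03. The list mixes genes of oxygen sensing with HIF targets, and a part of HIF in the changes of Vegfa was not tested.

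Signal proteins that dock at VEGF and PDGF receptors were followed as 12 genes. None passed with alprostadil. With trametinib added 3 rose, 4 fell and 5 did not pass, a called share of 58.3% against 33.4% of all genes. Rasa1, which encodes a RAS-inactivating protein recruited by PDGFRB, fell by 1.05 (limma adjusted p = 4.52e-07). Src (0.59), Pik3r1 (0.53), which encodes a regulatory subunit of PI3 kinase, and Ptpn11 (0.38), which encodes the phosphatase SHP2, rose.

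**Figure D5:**
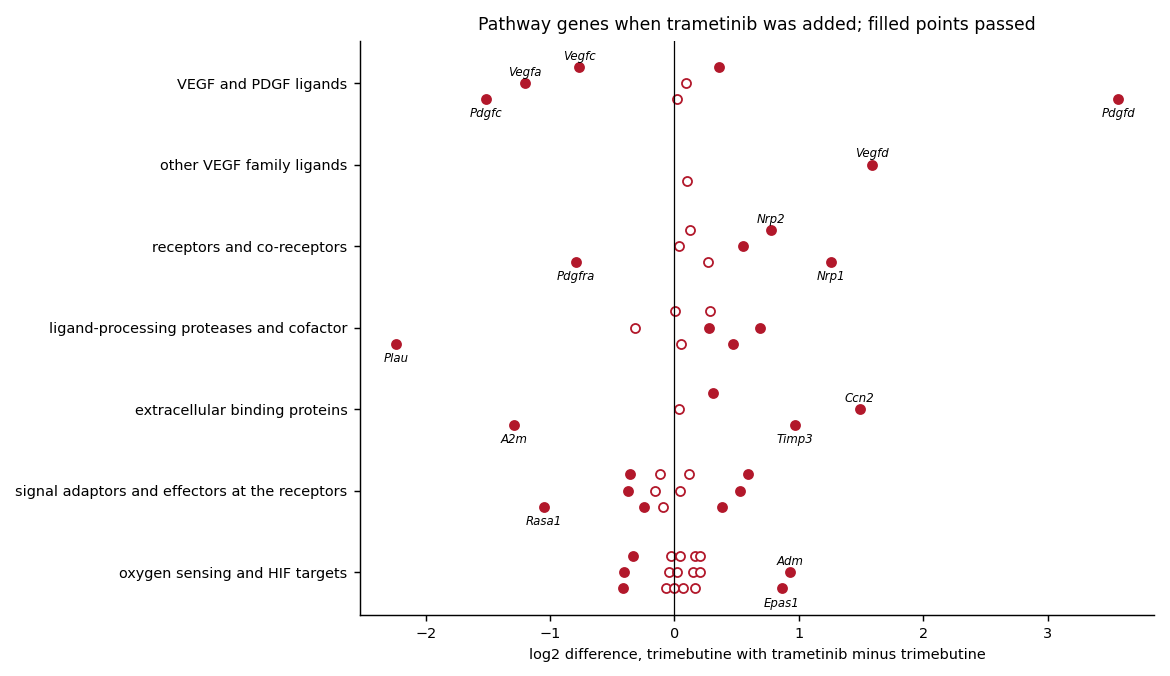
Log2 difference between the combination and trimebutine (horizontal axis) for each tested gene of 7 lists (rows). Filled points passed, and genes that passed with a difference over 0.7 in size are named. The ligand row runs from Pdgfc at −1.51 to Pdgfd at 3.57.

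The genes whose values followed each ligand gene most closely were picked as the 3 with the highest Pearson correlation over the 12 arrays, given here as a description with no test. Arrays of a group share their treatment and those of a number varied together, so the values rest on few independent points. Vegfa was followed most closely by Tfpi2 (r = 0.997), a protease inhibitor gene, then by Btrc (0.989) and Cd24 (0.986). Tfpi2 kept r = 0.986 over the 9 arrays without trametinib, and its difference was 1.26 with alprostadil and −2.12 when trametinib was added. For Pdgfd the closest were Rarres2 (0.997), the fibrillin gene Fbn1 (0.996) and P4ha2 (0.996), an enzyme gene of collagen synthesis. Without the combination arrays these were 0.89, 0.66 and 0.59, so the likeness to Fbn1 and P4ha2 lay largely in the combination group.
Pdgfc was closest to Dab2 (0.990), Ano3 (0.987) and Sez6l (0.987), and Dab2 kept 0.987 without the combination. Vegfc was closest to Zmynd8 (0.988), Gpbp1l1 (0.985) and the Wnt modulator gene Sfrp1 (0.985), and Vegfb to Ctns (0.980), Loxl1 (0.976) and Synrg (0.975). Pdgfa had Ap1ar (0.961), Ezh1 (0.949) and Camta2 (0.942). Pdgfb, which varied little, had Ppp1r27 (0.820), Tmem178a (0.798) and Snph (0.791).

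Markers of other cells that make or answer these ligands were measured in the same arrays. Endothelial markers had 6 of 7 genes with a row, 2 of them under the low-signal limit, and the mean of their log2 values lay between 5.79 and 6.03 in all arrays, close to that limit. None of the 4 tested passed in any comparison. Tek, not tested because its mean lay under the limit, had values of 6.32, 6.33 and 6.01 with the combination and at most 5.86 in the other groups. Platelet markers had means of 6.01 to 6.28 with vehicle and 6.35 to 6.74 with alprostadil, where none of 4 passed. The differences of these 4 for alprostadil against vehicle ran from −0.01 to 1.59, with a median of 0.24. The highest was that of Pf4, named after its values were seen (1.59, limma adjusted p = 0.178, and 0.00123 with the replicate block). Ppbp had 0.36, Itga2b 0.13 and Gp9 −0.01, so the shift of the list mean lay mostly in Pf4. Their vehicle means were 5.89, 5.97 and 6.45, beside a low-signal limit of 5.83. Gp1ba, under the limit and not tested, had means of 5.34 with vehicle and 5.35 with alprostadil. With trametinib added Pf4 had a difference of −0.34. None of the 4 passed in that comparison, and 2 were higher with the replicate block. Macrophage and leukocyte markers, 9 genes, had means of 7.61 to 8.49 with vehicle, 7.35 to 8.63 with alprostadil, 7.56 to 8.51 with trimebutine and 7.28 to 8.05 with the combination. Csf1r, Cd14, Adgre1, Ptprc and Tyrobp were highest in replicate 3 of every group, as were Pdgfc and Pf4. Cd68, Cd163, Aif1 and Fcgr1a did not keep that order in every group. With trametinib added, where 33.4% of all genes were called, 1 of 8 tested fell, Cd68 by 1.03 (limma adjusted p = 5e-05). With the replicate block 1 was higher and 3 were lower, among them Cd14 (−0.68). Smooth muscle and pericyte markers, 6 genes, had means of 7.82 to 7.93 with trimebutine and 8.17 to 8.36 with the combination. Of these 1 of 6 rose, Tagln (2.37), or 2 with the replicate block. The 6 differences ran from −0.34 to 2.37, with a median of 0.10, so the list did not move as a whole. The same markers had means of 7.80 to 7.94 with vehicle and 7.57 to 7.66 with alprostadil, ranges that did not overlap. None of the 6 passed there, and 2 were lower with the block, Cspg4 (−0.65) and Tagln (−0.66). Keratinocyte markers had means of 6.03 to 6.25 over the 12 arrays with none of 3 passing, and Schwann and melanocyte markers 6.82 to 7.20 with 1 of 4 rising when trametinib was added, or 2 with the block. The part of such cells in the changes of Vegfa, Pdgfc and Pdgfd was not tested.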

How the data were processed

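RNA of 12 SKP cultures was measured on Affymetrix rat gene arrays with 1 colour, as the labels' protocols say. For each feature the authors deposited a log2 value. The submitters' processing notes name the package oligo and the method RMA, which corrects background, normalizes between arrays and summarises probes. Their versions were not given in those notes. Such normalization hides a change in total RNA per cell.

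Of 36685 features, 18511 had 1 gene symbol in the platform annotation, 575 several and 17599 none. Symbols were updated through Entrez identifiers (18394 matched the GRCr8 table). The brightest row was used for genes with several. Genes with a mean under the 25th percentile (5.83) were left out, which left 13636. Limma 3.58.1 in R 4.3.3 fitted a mean per group to all 12 arrays (8 residual degrees of freedom), with all 6 pairs of groups tested, two-sided. The number of arrays limits the precision.

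Named genes were all 7 members, all receptors, up to 4 genes that passed per list and comparison with the smallest p, and the 3 most similar genes per member. Outside this rule, after their values were seen, the text names Furin, St14, Tek, Tagln, Cspg4, and the platelet, macrophage and leukocyte markers. It also names the precursor markers given with a range, for alprostadil Plat, Ccn2 and Hif1a, and for added trametinib Crem. The members, lists and comparisons were chosen with earlier results of these data known. The fit was tested on simulated data with 13636 genes: in the alprostadil and vehicle arrays it recovered 66% of genes given a change of 0.5 and 90% of those given 1, with 17 false among 195 calls. For the combination against trimebutine it was 64% and 88%, with 2 false among 177. The simulated arrays had independent noise and 50 genes changed at each size, whereas the real arrays varied together within a replicate number. These shares may therefore differ in the real data.

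The titles give each group replicate numbers 1 to 3, and the design names 3 isolates. Deviations from the group mean correlated at 0.21 to 0.81 in the 18 same-number array pairs across groups and at −0.71 to 0.10 in the 36 different-number pairs. By this check the numbers pair the arrays. The reported intervals and p-values still come from the fit without the block, as fixed in the design, and the fit with the number as a block was an alternative. Others were no filter, a filter at the median, the mean of rows, arrays centred on their medians, only the 2 groups compared, a variance trend with a robust prior, and leaving out each array in turn. Each p-value rests on the spread among cultures from these isolates.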

Additional observations from a re-analysis of the deposited data

How the results depend on the processing

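For all 6 comparisons the count of members called was the same under every alternative run except runs that lost Pdgfa in the comparison of the combination with alprostadil, where 5 were called in place of 6. These counts include the fit with the replicate block, which gave 1 member for alprostadil against vehicle, 0 for trimebutine against vehicle, 5 for the combination against trimebutine or vehicle and 6 against alprostadil, and it changed no member's call. Of all genes, the block gave 257 calls for alprostadil against vehicle beside 53, and 342 against trimebutine beside 52. With only the 2 groups compared each of these had 29. Leaving out 1 array moved the first count by over 1.5 times: it was 30 without vehicle replicate 2, 32 without vehicle replicate 3, 34 without alprostadil replicate 1 and 32 without alprostadil replicate 2. The second count was 33 without alprostadil replicate 2 and 29 without trimebutine replicate 2. Vegfa was called in all of these runs. For the members, 513 of 540 values under an alternative kept their direction and their side of the threshold, 6 lost a call and 21 changed sign. The 6 were all Pdgfa in the combination against alprostadil: besides the runs without an array, no filter (adjusted p = 0.0638) and only the 2 groups compared (0.0975) lost it.

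None of the 21 sign changes concerned a value that passed, and all came from leaving out 1 array. The ranges over such runs follow, on the log2 scale. For alprostadil against vehicle these ranges were −0.11 to 0.072 for Pdgfb and −0.23 to 0.078 for Pdgfc. For trimebutine against vehicle these ranges were −0.076 to 0.036 for Vegfa, −0.096 to 0.11 for Vegfc, −0.031 to 0.089 for Pdgfa, −0.00025 to 0.13 for Pdgfb and −0.10 to 0.24 for Pdgfc. For the combination against trimebutine these ranges were −0.014 to 0.20 for Pdgfa and −0.042 to 0.091 for Pdgfb. For the combination against vehicle the range was -5.6e-05 to 0.21 for Pdgfa. For alprostadil against trimebutine the range was −0.30 to 0.011 for Pdgfc. Among the named genes of other lists, Flt4 lay between −0.035 and 0.11 when trametinib was added, and Crem, which rose with alprostadil, lost its call in 5 alternatives. Centring the arrays on their medians moved the differences between groups by at most 0.047 on the log2 scale. Signal over background limits what can be seen of Pdgfb, Pgf and the endothelial markers, which lay close to the low-signal limit.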
